A study of Mus musculus with 36 samples.

Results

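Purkinje cell genes were taken as the 9 genes *Itpr1*, *Car8*, *Calb1*, *Pcp4*, *Rgs8*, *Pcp2*, *Ppp1r17*, *Slc1a6* and *Rora*, chosen by name as markers of this cell, with earlier results of these data known but with no value in the rule. Each was found once in the count table of every age, among 55450 genes at 1 month, 53379 at 2 months and 54146 at 3 months. RNA had been sequenced from the forebrain/midbrain (F/M) and the cerebellum (Cb) of mice aged 1, 2 and 3 months, with 3 control and 3 Tpp1-/- libraries per region and age, 12 groups and 36 libraries in all. Tpp1-/- mice carry a germline disruption of *Tpp1*, made by gene targeting, and are a model of the childhood disease CLN2, in which the lysosomal protease tripeptidyl peptidase 1 is missing from all cells rather than from Purkinje cells alone. Controls were unaffected siblings labelled wt, except that control replicate 3 of 1 month was Tpp1+/- in both regions. In each genotype, replicate 1 of 1 month and replicate 3 of 3 months were female and the other animals male, and at 2 months all were male.

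Purkinje cells are the large inhibitory neurons of the cerebellar cortex and its only output. Glutamate from parallel and climbing fibres drives the formation of IP3 in them and the release of calcium from internal stores, and an unusually rich set of calcium channels, buffers and calmodulin-binding proteins handles that calcium. Loss of these cells, or of several of the genes described here, causes ataxia, and the cerebellum is strongly affected in CLN2. The comparison of Tpp1-/- with control Cb therefore asks whether the transcripts of this cell had changed by 3 months, and F/M, which holds no Purkinje cells, serves as the contrast. In bulk tissue, fewer Purkinje cells and less RNA per cell cannot be told apart.

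Library totals lay between 10609896 and 29942380 reads on genes, and each Purkinje gene had between 2505 and 107360 of them in a Cb library, so counting error was small there. Levels are given as CPM, read counts relative to the library total and scaled by the TMM method of edgeR. *Tpp1* itself stood between 16.7 and 27.8 CPM in Tpp1-/- Cb, against 89.5 and 87.8 CPM in the wt and 55.9 CPM in the Tpp1+/- control of 1 month, 110.1 to 110.8 CPM in controls of 2 months and 50.8 to 56.1 CPM in those of 3 months. Some Cb libraries stood apart from their groups. In Tpp1-/- replicate 1 of 1 month and of 3 months the longest quartile of genes was low against the shortest quartile, with median log2 deviations from the group mean that differed by −0.287 and −0.469. The members with the greatest annotated length, *Itpr1*, *Rora* and *Rgs8*, were also low in these libraries, and *Pcp2* and *Pcp4*, which are short, were high. Control replicate 3 of 3 months had the highest *Itpr1*, *Rgs8*, *Pcp2*, *Pcp4* and *Slc1a6* of its group and the lowest *Calb1*, *Car8*, *Ppp1r17* and *Rora*. Its marker genes of other tissue also stood apart. Midbrain and thalamus genes summed to 185.7, 180.5 and 127.7 CPM in control replicates 1, 2 and 3 of that age. The sums were 5750, 5730 and 4505 CPM for oligodendrocyte genes and 956.1, 1008 and 1532 CPM for choroid plexus genes. The part of this in the members' values was not tested. The Tpp1-/- libraries of 2 months had low levels of midbrain and thalamus genes, which summed to 60.8 to 78.0 CPM against 160.5 to 204.8 CPM in controls.

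Promoter sequences are shown for *Pcp2*, *Pcp4* and *Slc1a6*, because the levels of these genes moved together from library to library, as described further on. They were read from RefSeq promoter windows of GRCm38.p6, which held 5 of the 9 genes (*Pcp2*, *Pcp4*, *Rgs8*, *Rora* and *Slc1a6*), and are the 250 bases before the start of the transcript on the strand of the gene. Capitals mark AGGTCA or its reverse complement TGACCT, the core motif of the receptor that *Rora* encodes. The lines are, in turn, *Pcp2* at chr8:3625548-3625797 on the minus strand, *Pcp4* at chr16:96467356-96467605 on the plus strand and *Slc1a6* at chr10:78780246-78780495 on the plus strand.
Pcp2: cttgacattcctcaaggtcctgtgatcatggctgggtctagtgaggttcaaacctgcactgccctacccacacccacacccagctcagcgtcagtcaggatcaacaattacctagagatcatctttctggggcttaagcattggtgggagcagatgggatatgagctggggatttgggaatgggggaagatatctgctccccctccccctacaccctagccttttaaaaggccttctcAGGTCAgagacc
Pcp4: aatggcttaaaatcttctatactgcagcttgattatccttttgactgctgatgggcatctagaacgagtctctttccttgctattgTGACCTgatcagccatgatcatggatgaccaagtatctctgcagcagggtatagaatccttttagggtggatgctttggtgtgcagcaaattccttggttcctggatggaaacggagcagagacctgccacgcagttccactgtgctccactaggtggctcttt
Slc1a6: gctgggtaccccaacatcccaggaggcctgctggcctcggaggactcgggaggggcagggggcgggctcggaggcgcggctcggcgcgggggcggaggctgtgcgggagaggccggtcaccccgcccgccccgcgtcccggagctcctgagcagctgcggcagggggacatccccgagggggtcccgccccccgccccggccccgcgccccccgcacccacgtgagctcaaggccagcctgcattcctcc
The motif began 12 bases before the start in this *Pcp2* window, 1 of 4 for this gene, and 164 bases before it in *Pcp4*. It was not in the *Slc1a6* window, of which 78.8% of bases were G or C. Of the 10 windows of the 5 genes, 5 held the motif, and *Rgs8* was the third gene with one. Some windows of *Pcp2* overlap, so that the 5 windows hold 4 separate sites. Of all 32851 windows of 300 bases, 16.3% held it on either strand, as did at least 1 window of 18.1% of 27025 genes. A match describes the letters of a window and does not show a binding site.

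In control Cb the Purkinje genes spanned a wide range of levels, and all of them were higher than in F/M. Compared per kilobase of the annotated length, *Car8* was the highest member at every age and *Rora* the lowest. *Car8*, a carbonic anhydrase relative without enzyme activity that binds the IP3 receptor, stood at 419.1 ± 21.6, 441.9 ± 27.4 and 461.4 ± 42.7 CPM per kilobase at 1, 2 and 3 months (SD, n = 3). *Rora*, which encodes a nuclear receptor that Purkinje cells need to mature, stood at 39.9 ± 2.18, 38.4 ± 3.33 and 37.0 ± 2.21 CPM per kilobase, and *Slc1a6*, which encodes the glutamate transporter EAAT4 of Purkinje cell spines, came just above it at 70.5 ± 3.21, 74.7 ± 3.51 and 73.8 ± 19.5. Between these ends, *Calb1*, which encodes the calcium buffer calbindin, and *Itpr1*, which encodes the IP3 receptor that releases the stored calcium, came before *Rgs8*, *Ppp1r17* and *Pcp2*. Their means at 2 months were 229.9 ± 5.60, 194.4 ± 1.36, 138.3 ± 1.91, 132.5 ± 2.69 and 125.6 ± 9.51 CPM per kilobase. Control ranges of neighbours overlapped for *Ppp1r17* and *Pcp2* at 2 months, for *Ppp1r17*, *Pcp4* and *Rgs8* at 1 month and, at 3 months, for each neighbouring pair from *Pcp4* to *Pcp2*, so their order is not settled there. *Pcp4*, which encodes a calmodulin-binding peptide, had rank 2 at 2 and 3 months and 5 at 1 month, but its annotated length was 1026 bases at 1 month and 641 at the later ages, so that this shift in rank goes with the annotation.

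**Figure D1:**
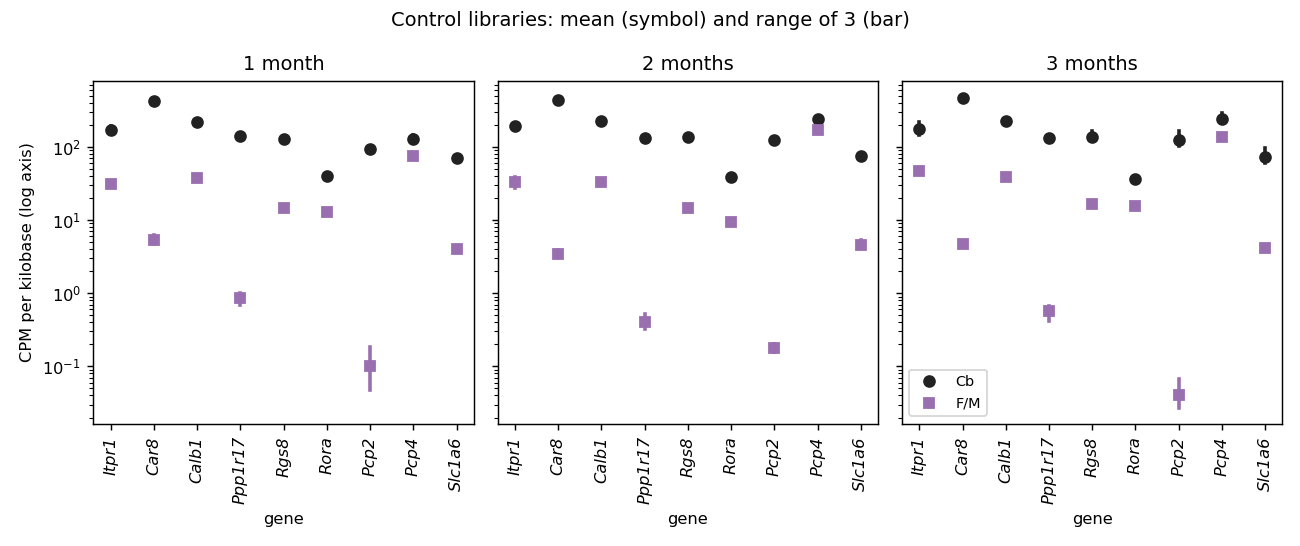
Level of each Purkinje gene in control libraries at 1, 2 and 3 months, in CPM per kilobase on a log axis, with the mean as a symbol and the range of 3 libraries as a bar, for Cb (circles) and F/M (squares). *Pcp2*, *Ppp1r17* and *Car8* are far apart between the regions and *Pcp4* lies close.

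The contrast of control Cb with control F/M shows how far each gene marks the region that holds Purkinje cells. It is no test of the name given to the genes. They were chosen as markers of a cerebellar cell, and markers of other cells of the cerebellum would be higher in Cb too. A gene was called here when edgeR's quasi-likelihood test gave a Benjamini-Hochberg adjusted p under 0.1 together with a change of 1.5 times or more. All 9 genes were called higher in Cb at 1 month, 8 at 2 months and 9 at 3 months, where 15.8%, 17.4% and 17.8% of all genes tested were. The exception was *Pcp4* at 2 months, whose log2 difference of 0.50 (standard error 0.0765, adjusted p = 1.26e-05 by edgeR) lay below the fold minimum. *Pcp4* had the smallest difference at every age, with 0.74 at 1 month and 0.82 at 3 months on the log2 scale. *Rora* followed, with 1.63, 2.04 and 1.23 at 1, 2 and 3 months. The values of *Itpr1* were 2.47, 2.57 and 1.89, those of *Calb1* 2.55, 2.78 and 2.55, and those of *Rgs8* 3.13, 3.26 and 3.04. *Slc1a6* lay near 4, at 4.12, 4.01 and 4.16, *Car8* between 6.32 and 6.99, and *Ppp1r17* between 7.35 and 8.36. These genes are thus far from equal as marks of the region. *Pcp4*, *Calb1*, *Itpr1*, *Rgs8* and *Rora* were plainly expressed in F/M too. Their control means there at 1 month were 76.4, 37.3, 31.3, 14.5 and 12.95 CPM per kilobase. *Pcp2*, which encodes a modulator of inhibitory G proteins, had 3 or fewer counts in 12 of the 18 F/M libraries and never more than 8, against at least 3383 in Cb. Scaled to the library totals, its control counts were 992 times higher in Cb at 1 month (95% counting interval 554 to 1990), 697 times at 2 months (451 to 1140) and 3160 times at 3 months (1240 to 11600), from 11, 20 and 4 counts in all 3 control F/M libraries together. These intervals cover counting error only.

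None of the 9 Purkinje genes was called in Tpp1-/- against control Cb at 1, 2 or 3 months. Of all genes tested, 0.0112% were called in Cb at 1 month, 2.05% at 2 months and 0.859% at 3 months. At 1 month the log2 fold changes of the members lay between −0.30 and 0.25 with a median of −0.03. At 2 months all 9 were above 0, between 0.05 and 0.27 with a median of 0.12, but without Tpp1-/- replicate 2 they lay between −0.0091 (*Rora*) and 0.185 (*Itpr1*), with 0.05 for *Calb1* and 0.03 for *Car8*. At 3 months they lay between −0.14 and 0.09 with a median of −0.02. The median of all genes tested was within 0.01 of 0 at each age. A log2 fold change above 0 was found for 3, 9 and 4 members at 1, 2 and 3 months, against 51.3%, 50.0% and 49.2% of all genes. Before adjustment, 1, 3 and 0 members had a p under 0.05, where 7.66%, 9.67% and 6.49% of all genes did. Control and Tpp1-/- libraries were fully separated for 1, 2 and 0 members, against 7.97%, 18.1% and 8.67% of all genes. The 95% intervals limit what could have been missed in the fit of all libraries. The largest fall that any member's interval allowed there was 32.1% at 1 month (*Rora*), 7.42% at 2 months (*Pcp4*) and 31.6% at 3 months (*Itpr1*). These limits moved with single libraries. Without Tpp1-/- replicate 1, *Pcp4* at 3 months had a log2 fold change of −0.42 (standard error 0.113). Without Tpp1-/- replicate 3, *Rora* at 1 month had −0.41 (standard error 0.118). Nor do the intervals cover differences in tissue between the groups, such as that of 2 months.

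**Figure D2:**
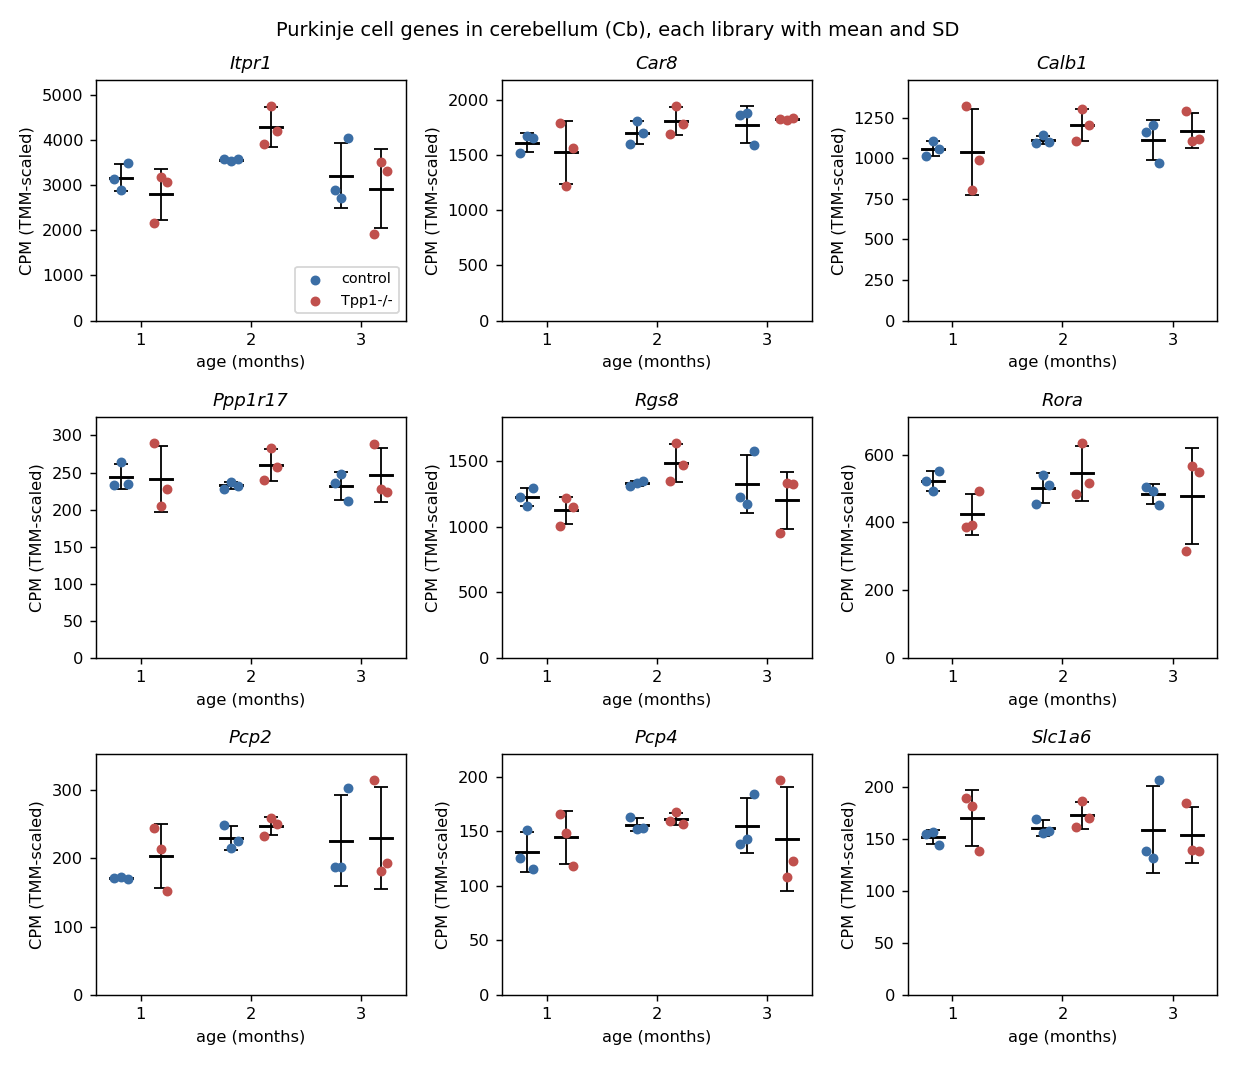
CPM of each Purkinje gene in every Cb library at 1, 2 and 3 months (x axis, age in months), control in blue and Tpp1-/- in red, with the mean and SD of 3 libraries. The groups overlap in most panels, and the spread within a group is widest at 3 months for 6 genes and in Tpp1-/- Cb of 1 month for the other 3 (*Calb1*, *Car8* and *Ppp1r17*).

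Among the genes of calcium release and buffering, *Itpr1* (chromosome 6, 108213096 to 108551109 of GRCm38) was the member that moved most at 2 months. At 1 month it stood at 3131, 2885 and 3489 CPM in control replicates 1, 2 and 3 and at 2153, 3187 and 3063 CPM in Tpp1-/- Cb. Control levels at 2 months were 3578, 3533 and 3574 CPM, beside 3906, 4767 and 4203 CPM in Tpp1-/- Cb. Control levels at 3 months were 2896, 2708 and 4037 CPM, beside 1916, 3525 and 3321 CPM. Only at 2 months did the groups not overlap, with all 3 Tpp1-/- libraries above all 3 controls, while at 3 months the highest library was a control and the lowest a Tpp1-/- library. The log2 fold change was −0.18 (standard error 0.123, adjusted p = 0.690), 0.27 (standard error 0.0976, adjusted p = 0.260) and −0.14 (standard error 0.191, adjusted p = 0.975) at 1, 2 and 3 months by edgeR. The unadjusted p at 2 months was 0.0129 in the edgeR fit. With no filter on low counts the adjusted p of edgeR at 2 months fell to 0.00261, and with the 6 Cb libraries fitted alone to 0.0418, still below the fold minimum with log2 fold changes of 0.28 and 0.27. Without Tpp1-/- replicate 1 the log2 fold change at 3 months was 0.09 and without control replicate 3 it was 0.06, so its sign there rested on single libraries. At 1 month it was −0.03 without Tpp1-/- replicate 1.

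By the SD of log2 deviations from the group means over the 18 Cb libraries, *Car8* varied least of this set. Its SD was 0.12, followed by 0.151 for *Calb1*, though *Car8* did not vary least in every group. Its Tpp1-/- libraries of 3 months stood at 1825, 1822 and 1835 CPM, beside controls at 1865, 1880 and 1588 CPM. At 1 month they stood at 1791, 1218 and 1566 CPM and the controls at 1519, 1674 and 1651 CPM. The groups overlapped at every age, and the log2 fold change was −0.08, 0.09 and 0.04 at 1, 2 and 3 months, with adjusted p between 0.830 and 0.985 in the edgeR fits. *Calb1*, whose protein is a standard stain for Purkinje cells, ranged from 970.2 to 1205 CPM in the 9 control and from 804.8 to 1326 CPM in the 9 Tpp1-/- Cb libraries. Both of its extremes were Tpp1-/- libraries of 1 month. Its log2 fold change was −0.03, 0.11 and 0.07 (standard errors 0.136, 0.0722 and 0.102), and without Tpp1-/- replicate 1 that of 1 month became −0.25 (unadjusted p = 0.0146, adjusted p = 0.641 by edgeR). *Pcp4* stood at 138.1, 143.2 and 184.0 CPM in control and 197.2, 107.9 and 123.0 CPM in Tpp1-/- Cb at 3 months, where the highest value belonged to Tpp1-/- replicate 1, which also had the lowest *Itpr1*. Its log2 fold change at that age was −0.12 (standard error 0.181, adjusted p = 0.978 by edgeR) and became −0.42 without that library (standard error 0.113, adjusted p = 0.0927 by edgeR), a value past the threshold on p but below the fold minimum. At 1 and 2 months it was 0.14 and 0.05, with overlapping groups.

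Of the genes that regulate G proteins and phosphatases, *Ppp1r17* and *Rgs8* had an unadjusted p under 0.05 at 2 months in Cb, and neither passed adjustment. Without Tpp1-/- replicate 2 their log2 fold changes at that age were 0.09 and 0.08. *Ppp1r17* (chromosome 6, 56017497 to 56032689) encodes a substrate of the cGMP-dependent kinase that inhibits protein phosphatases when phosphorylated. It stood at 228.4, 237.8 and 232.2 CPM in the controls of 2 months and at 239.3, 282.9 and 257.4 CPM in Tpp1-/- Cb, without overlap. The lowest Tpp1-/- library was only just above the highest control, and the log2 fold change of 0.16 (standard error 0.0702, unadjusted p = 0.0369) did not pass adjustment (adjusted p = 0.451 by edgeR). At 1 and 3 months its log2 fold change was −0.02 and 0.09, with overlapping groups. *Rgs8*, which encodes a protein that ends G protein signals, stood at 1314, 1336 and 1351 CPM in controls and 1350, 1643 and 1469 CPM in Tpp1-/- Cb at 2 months. Here 1 Tpp1-/- library lay within the range of the controls, and the log2 fold change was 0.16 (standard error 0.0732, unadjusted p = 0.0451, adjusted p = 0.491 by edgeR). It was −0.13 and −0.14 at 1 and 3 months, and 0.01 at 3 months without either Tpp1-/- replicate 1 or control replicate 3. Over the 18 Cb libraries *Pcp2* had the largest SD of log2 deviations from the group means, 0.24 beside 0.235 for *Itpr1*. *Pcp2* was not the widest member in every group. It stood at 171.0, 173.1 and 170.3 CPM in the controls of 1 month and at 244.6, 213.0 and 152.8 CPM in Tpp1-/- Cb, and at 3 months at 186.6, 187.5 and 303.0 CPM in control and 315.1, 181.5 and 192.8 CPM in Tpp1-/- Cb. The 3 controls of 1 month lay within 3 CPM of each other, whereas at 3 months each genotype had 1 library far above its other 2. The log2 fold change was 0.25, 0.11 and 0.03 (standard errors 0.143, 0.0752 and 0.210). At 3 months it was −0.27 without Tpp1-/- replicate 1 and 0.30 without control replicate 3, and at 1 month it was 0.09 without Tpp1-/- replicate 1 (adjusted p = 0.875) and 0.43 without Tpp1-/- replicate 3 (adjusted p = 0.0565), both by edgeR and below the fold minimum.

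*Slc1a6* behaved much like *Pcp2*, with 138.0, 131.4 and 207.0 CPM in control and 184.7, 139.2 and 138.0 CPM in Tpp1-/- Cb at 3 months. The highest library of each genotype was the same as for *Pcp2*. Its log2 fold change was 0.17, 0.11 and −0.04 at 1, 2 and 3 months, and its adjusted p lay between 0.696 and 0.992 in the edgeR fits. The log2 fold change at 1 month without Tpp1-/- replicate 1 was 0.08 for *Slc1a6*, 0.02 for *Pcp4* and −0.06 for *Rgs8*.

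*Rora* (chromosome 9, 68653786 to 69388246) had the largest change of the members at 1 month, and it was a fall. It stood at 522.1, 493.7 and 550.7 CPM in control and at 384.8, 393.0 and 493.5 CPM in Tpp1-/- Cb. The groups did not overlap, but the highest Tpp1-/- library, replicate 3, was within 1 CPM of the lowest control. The log2 fold change was −0.30 (standard error 0.120, unadjusted p = 0.0243) and did not pass adjustment (adjusted p = 0.630 by edgeR). It was −0.24 without Tpp1-/- replicate 1 (adjusted p = 0.652), and without Tpp1-/- replicate 3 it was −0.41 (adjusted p = 0.0727), both by edgeR. Among the marker lists of Cb at 1 month, the summed levels of microglia genes (103.3 to 122.0 CPM in control and 129.3 to 136.8 CPM in Tpp1-/- Cb) and reactive astrocyte genes (297.6 to 354.4 and 372.7 to 413.4 CPM) did not overlap, with 0 genes called in either, and their part in the members' values was not tested. At 2 months *Rora* stood at 454.1, 539.8 and 510.4 CPM in control and 482.9, 635.6 and 515.1 CPM in Tpp1-/- Cb, and at 3 months at 505.8, 492.9 and 450.6 CPM and 315.0, 568.0 and 549.2 CPM. The groups overlapped at both ages, and at 3 months the lowest and the highest of the 6 libraries were both Tpp1-/-. The log2 fold changes were 0.12 and −0.02, at 2 months −0.0091 without Tpp1-/- replicate 2, and at 3 months 0.21 without Tpp1-/- replicate 1 (unadjusted p = 0.0381, adjusted p = 0.288 by edgeR).

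**Figure D3:**
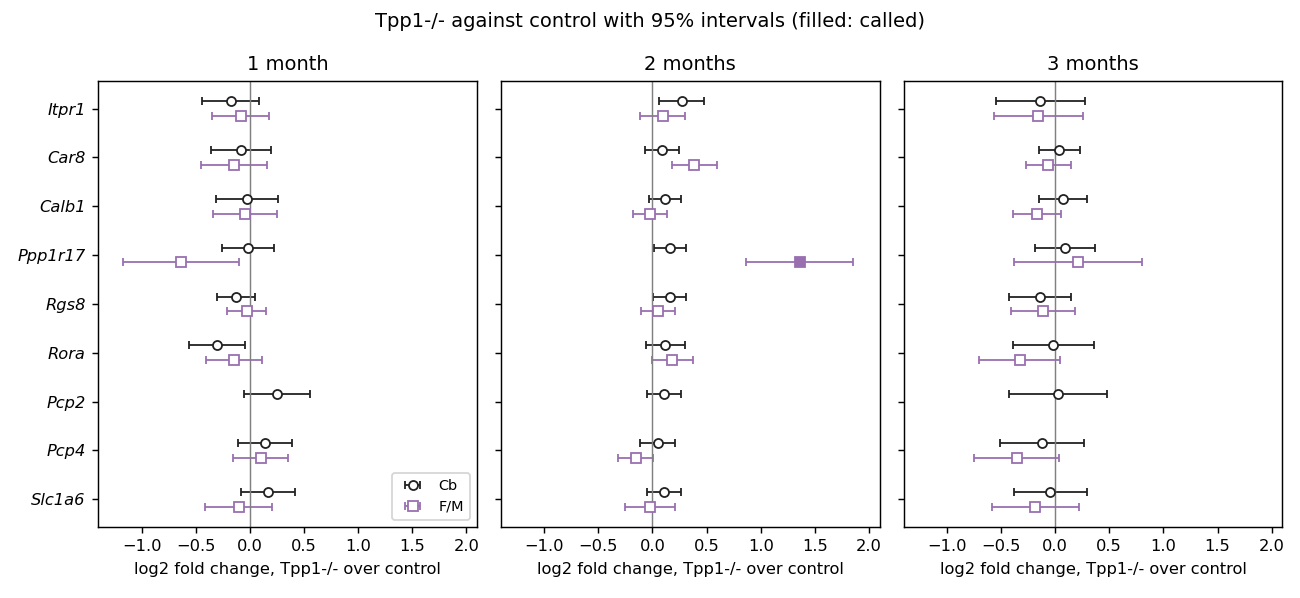
Log2 fold change of Tpp1-/- against control for each Purkinje gene at 1, 2 and 3 months, with 95% intervals, in Cb (circles) and F/M (squares). A filled symbol marks a called gene, which is *Ppp1r17* in F/M at 2 months alone, and *Pcp2* is left out in F/M for its low counts.

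The 2-month libraries of Tpp1-/- Cb were ordered alike by the members. Replicate 2 was the highest of the 3 for all 9 genes, and replicate 1 the lowest for 8 of them. The summed CPM of the 9 genes was 8848, 9123 and 9005 in the controls and 9333, 11200 and 10010 in the Tpp1-/- libraries, which did not overlap. At 1 month these sums did not overlap either, in the opposite direction, with 8104, 8067 and 8706 CPM in controls and 7555, 7569 and 7897 CPM in Tpp1-/- Cb, and at 3 months they overlapped. The sums give most weight to *Itpr1*, the member with the highest CPM. Some marker lists ran the opposite way within these 3 libraries. The 11 midbrain and thalamus genes summed to 78.0, 60.8 and 72.4 CPM, the 5 oligodendrocyte genes to 6368, 5004 and 5629 CPM, and the 10 choroid plexus genes to 1784, 1604 and 1729 CPM in Tpp1-/- replicates 1, 2 and 3. Other lists were ordered like the members, with sums of 6892, 7452 and 7157 CPM for granule cell, 1998, 2394 and 2164 CPM for Bergmann glia, 362.8, 409.6 and 386.3 CPM for molecular layer interneuron and 354.3, 381.1 and 370.1 CPM for reactive astrocyte genes. The 9 forebrain genes followed neither order, with 137.0, 147.6 and 152.5 CPM. Against the controls, 7 of the 11 midbrain and thalamus genes fell and 6 of the 10 choroid plexus genes rose at 2 months, and 0 of the 5 oligodendrocyte genes were called, with all 5 log2 fold changes below 0. Of the forebrain genes 2 fell, *Lhx2* by 2.78 and *Drd2* by 2.80 on the log2 scale, from levels of 1.44 to 1.85 and 4.52 to 5.19 CPM in controls, and of the 5 reactive astrocyte genes *Serpina3n* fell by 0.93 (adjusted p = 7.03e-06, 1.52e-07 and 0.00156 by edgeR). Of 6 brain stem genes 1 was tested and 0 were called in Cb. Control sums were 6067 to 6379 CPM for oligodendrocyte, 977.0 to 1275 CPM for choroid plexus, 347.4 to 355.5 CPM for interneuron, 325.9 to 338.7 CPM for reactive astrocyte, 6668 to 6912 CPM for granule cell, 1953 to 2013 CPM for Bergmann glia and 145.9 to 155.1 CPM for forebrain genes. The interneuron and reactive astrocyte sums were thus higher in Tpp1-/- Cb without overlap, as that of the members was. Of all single genes tested, 18.1% did not overlap in Cb at 2 months and 7.97% at 1 month. The part of these differences in tissue in the members' values was not tested. At 3 months, when the members had no common direction, 8 of 12 microglia and 4 of 5 reactive astrocyte genes rose in Tpp1-/- Cb, with sums of 240.0 to 376.6 against 115.6 to 132.4 CPM and of 720.7 to 994.0 against 330.1 to 385.0 CPM.

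Whether the effect of Tpp1-/- in Cb changed with age was tested in a model of all 36 libraries, over the 18322 genes tested in it and with an adjusted p under 0.1 and no fold minimum. Between 1 and 2 months 0 members were called where 1.28% of genes were, between 2 and 3 months 0 against 1.44%, and between 1 and 3 months 0 against 0.458%. From 1 to 2 months the difference in effect was 0.45 for *Itpr1* (unadjusted p = 0.0488, adjusted p = 0.561) and 0.43 for *Rora* (unadjusted p = 0.0452, adjusted p = 0.551) on the log2 scale by edgeR, and did not pass adjustment. Without Tpp1-/- replicate 1 of 1 month it was 0.30 for *Itpr1* (adjusted p = 0.831), and without Tpp1-/- replicate 2 of 2 months it was 0.30 for *Rora* (adjusted p = 0.794), both by edgeR. These 2 members alone had an unadjusted p under 0.05 in any of the 3 tests. With no filter on low counts the change of *Itpr1* was 0.46 with an adjusted p of 0.0459 by edgeR. Without Tpp1-/- replicate 1 of 3 months, the change from 1 to 3 months was 0.51 for *Rora* (adjusted p = 0.0640) and −0.57 for *Pcp4* (adjusted p = 0.0484) in the edgeR fit, so that 2 members were then called beside 1590 genes in all. Each age had its own annotation and counting settings, which the Tpp1-/- and control libraries of that age shared. Each age was also a separate set of libraries, so a change of the effect with age cannot be told apart from a difference between these sets.

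In F/M the only member called in Tpp1-/- against control was *Ppp1r17* at 2 months. Of the 9 members, 0, 1 and 0 were called at 1, 2 and 3 months, against 0.0112%, 0.737% and 0.464% of all genes. *Ppp1r17* stood at 0.564, 0.917 and 0.629 CPM in controls and at 1.74, 1.64 and 2.20 CPM in Tpp1-/- F/M, from 12, 19 and 12 counts and 35, 26 and 23 counts. All Tpp1-/- libraries were higher than all controls, at a level far below that in Cb, where control libraries were 328 times higher at 2 months. The log2 fold change was 1.36 (standard error 0.235, 95% interval 0.87 to 1.85, adjusted p = 0.0120 by edgeR). It was called in each alternative fit, with log2 fold changes from 1.21 to 1.6. At the other ages the pattern was not the same, with 1.78, 1.54 and 1.22 CPM in control and 0.875, 1.03 and 0.977 CPM in Tpp1-/- F/M at 1 month, a log2 fold change of −0.64 (unadjusted p = 0.0222, adjusted p = 1.0 by edgeR). At 3 months the groups overlapped (log2 fold change 0.21, adjusted p = 1.0 by edgeR). The controls of 2 months were the lowest control group and those of 1 month the highest, in tables that were counted and scaled separately.

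*Car8* followed in F/M at 2 months, with 15.1, 12.2 and 12.8 CPM in control and 18.03, 16.6 and 18.08 CPM in Tpp1-/- libraries. The groups did not overlap. The log2 fold change, 0.39 with a standard error of 0.0992, had an adjusted p of 0.0617 by edgeR and was below the fold minimum. Without *Pcp2*, the log2 fold changes of the other 8 members in F/M had medians of −0.10, 0.07 and −0.16 at 1, 2 and 3 months, and 1, 5 and 1 of them were above 0. Before adjustment, 1, 2 and 0 members had a p under 0.05 in F/M, against 1.89%, 16.9% and 5.94% of all genes. Groups of F/M libraries did not overlap for 2, 3 and 5 members at 1, 2 and 3 months, against 14.8%, 18.3% and 24.1% of all genes, and the 5 of 3 months were all lower in Tpp1-/- F/M, as were 12.3% of all genes. *Pcp4* (−0.36) and *Rora* (−0.33) were the lowest, with adjusted p of 0.898 and 0.923 by edgeR. Their values were 91.0, 90.1 and 81.8 CPM in control and 70.0, 72.0 and 63.3 CPM in Tpp1-/- F/M for *Pcp4*, and 213.5, 203.7 and 201.8 against 171.0, 182.0 and 140.9 CPM for *Rora*. The marker lists also differed between the groups of F/M at 2 months, where the 11 midbrain and thalamus genes summed to 217.4 to 243.8 CPM in control and 286.2 to 295.1 CPM in Tpp1-/- F/M, and 7 of 10 choroid plexus genes rose. The 9 forebrain genes summed to 714.7 to 729.3 CPM in control and 637.4 to 664.5 CPM in Tpp1-/- F/M, without overlap. Reactive astrocyte genes (239.8 to 284.4 and 296.8 to 328.4 CPM) and Bergmann glia genes (676.4 to 679.9 and 710.7 to 929.2 CPM) were higher in Tpp1-/- F/M without overlap, with 0 called in either list. Single genes of other lists also rose in F/M at 2 months. They were *Tph2*, the only brain stem gene tested, by 1.94 on the log2 scale (adjusted p = 0.0219 by edgeR), *Sox14* of the midbrain and thalamus list by 1.35 (0.0886), *Lhx1* of the other Purkinje genes by 0.77 (0.0824) and *Tfap2b* of the interneuron list by 0.71 (0.0816). At 3 months the midbrain and thalamus genes summed to 275.9 to 277.8 CPM in control and 217.2 to 252.3 CPM in Tpp1-/- F/M, and the oligodendrocyte genes to 5712 to 5951 and 4815 to 5424 CPM, with 0 called in either list. Glial lists were higher in Tpp1-/- F/M at that age, with sums of 549.2 to 624.7 against 233.7 to 251.3 CPM for reactive astrocyte genes, of which 3 of 5 rose (*Gfap*, *C4b* and *Serpina3n*), and of 439.3 to 479.3 against 334.6 to 357.7 CPM for microglia genes, of which 3 of 12 rose (*Tyrobp*, *Itgax* and *Cd68*). The summed CPM of the 9 members at 3 months was 1523 to 1575 in control and 1278 to 1406 in Tpp1-/- F/M, and that of the granule cell genes 292.8 to 307.7 and 269.1 to 282.8, both without overlap. The part of these differences in the members' values was not tested.

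**Figure D4:**
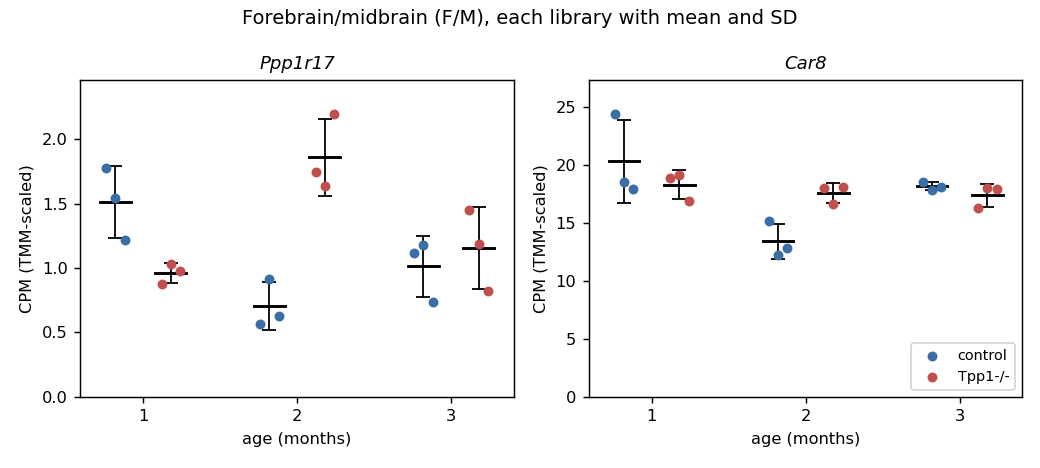
CPM of *Ppp1r17* and *Car8* in every F/M library at 1, 2 and 3 months (x axis, age in months), control in blue and Tpp1-/- in red, with the mean and SD of 3 libraries. The 3 Tpp1-/- libraries of 2 months lie above the 3 controls for both genes, and for *Ppp1r17* the order is the opposite at 1 month.

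The difference of the Tpp1-/- effect between the regions was tested directly, in a fit that treats Cb and F/M libraries as independent. The labels do not say whether libraries of the same number came from the same mouse, although they share the sex label. It was called, with an adjusted p under 0.1 and no fold minimum, for 0, 1 and 0 members at 1, 2 and 3 months, against 0%, 2.97% and 0.00581% of all genes. The member was *Ppp1r17* at 2 months, whose effect was lower in Cb than in F/M by 1.20 on the log2 scale, a difference of −1.20 (standard error 0.245, adjusted p = 0.0102 by edgeR). With the same number in both regions taken as 1 mouse, the difference was −1.21 (adjusted p = 0.0200 by edgeR), and the counts of members called between the regions were unchanged at each age. For *Car8* at 2 months the difference was −0.30 (standard error 0.124, unadjusted p = 0.0265, adjusted p = 0.334 by edgeR). For *Ppp1r17* at 1 month it was 0.62 (unadjusted p = 0.0397, adjusted p = 1.0 by edgeR), the opposite direction. At 3 months no member reached an unadjusted p under 0.05. In Cb the log2 fold change of *Ppp1r17* was 0.16 at 2 months and −0.02 at 1 month, so most of both differences lay in F/M.

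The members did not vary as a single group from one Cb library to the next. With group means taken out of the log2 CPM, the 36 pairs of members had Pearson correlations from −0.839 to 0.971 over the 18 Cb libraries, which share their depth, scaling and dissection. These correlations are a description of these libraries. The closest pairs formed 3 sets, drawn after the values were seen. *Itpr1* and *Rgs8* varied almost as one (0.971), with *Rora* less close to them (0.692 and 0.644). *Pcp2* ran with *Slc1a6* (0.958) and *Pcp4* (0.909), whose correlation with each other was 0.846. *Calb1* ran with *Ppp1r17* (0.937) and *Car8* (0.906), whose correlation with each other was 0.759. Between the sets the values ran from −0.839 to 0.521, the highest being *Pcp4* with *Ppp1r17*, and included *Pcp4* with *Rora* (−0.839), *Itpr1* with *Ppp1r17* (−0.786) and *Calb1* with *Slc1a6* (0.00607). Without Tpp1-/- replicate 1 of 1 month and of 3 months, the closest pair of each set stood at 0.968, 0.963 and 0.925 over 16 libraries, but the sets were less distinct. *Rora* then had 0.415 with *Itpr1* and 0.374 with *Rgs8*, less than its 0.573 with *Car8* of another set, and *Slc1a6* had 0.529 with *Rgs8*.

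The annotated length of a gene, which is not a measured transcript length, ran along with part of this pattern. The lengths in the annotation were 18319 bases for *Itpr1*, 13071 for *Rora* and 9640 for *Rgs8*, 4846 for *Calb1*, 3853 for *Car8* and 1757 for *Ppp1r17*, and 2152 for *Slc1a6*, 1828 for *Pcp2* and 1026 for *Pcp4* at 1 month. The correlation of each member with the difference between long and short genes of the library was 0.872 for *Rora*, 0.842 for *Itpr1* and 0.723 for *Rgs8*. It was −0.881 for *Pcp4*, −0.771 for *Pcp2*, −0.747 for *Ppp1r17*, −0.619 for *Slc1a6* and −0.555 for *Calb1*, and −0.194 for *Car8*. Over the 16 libraries without the 2 named, all of these values were closer to 0. Those of *Rora*, *Itpr1* and *Rgs8* were 0.784, 0.626 and 0.468, those of *Pcp4*, *Pcp2* and *Slc1a6* were −0.782, −0.589 and −0.466, those of *Ppp1r17* and *Calb1* were −0.456 and −0.224, and that of *Car8* turned to 0.0952. The part of length in the 3 sets was not tested. The genes that are no members and whose level ran closest to the mean of the 9 members, among 16704 genes tested at all ages, included *Ptprr* (0.898), *Ctnnb1* (0.887), *Klhl8* (0.879) and *Tgfb1* (0.878), over the same 18 libraries.

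**Figure D5:**
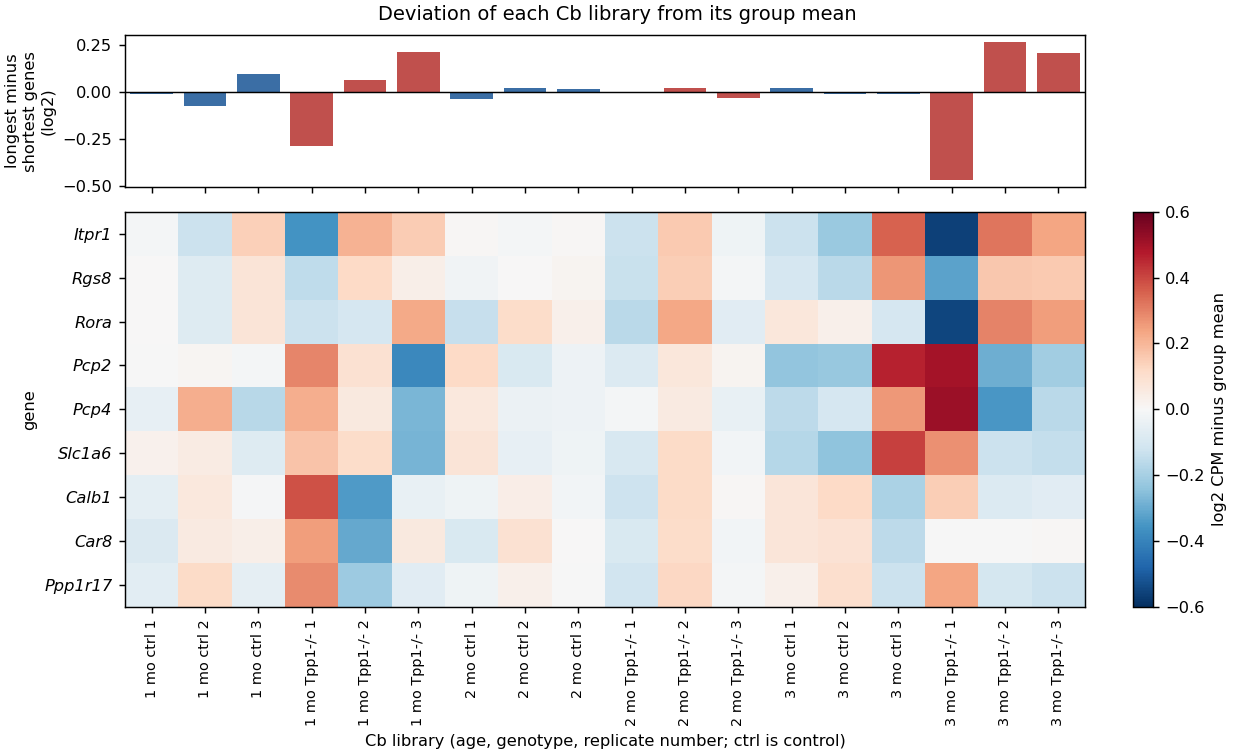
Deviation of each Cb library from the mean of its group for the 9 Purkinje genes (colour, log2 CPM), with the longest minus the shortest quartile of genes above (bars, log2, control in blue and Tpp1-/- in red). The rows are ordered by the 3 sets, and the libraries with the lowest bars, Tpp1-/- replicate 1 of 1 month at −0.287 and of 3 months at −0.469, have low *Itpr1* and high *Pcp2* and *Pcp4*.

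A wider list of 18 genes of IP3 and calcium signalling in Purkinje cells, with G proteins, phospholipases and calcium pumps, had 0 called members in Cb at every age. Its median log2 fold change was −0.12, 0.06 and −0.11 at the 3 ages in turn, with 6, 13 and 1 of 18 above 0, against 51.3%, 50.0% and 49.2% of all genes, and 3, 4 and 0 of 18 had an unadjusted p under 0.05, against 7.66%, 9.67% and 6.49%. Its summed level was lowest in Tpp1-/- replicate 1 at 1 and 3 months, with 5269, 6099 and 6059 against 6150, 5777 and 6723 CPM in controls at 1 month and 4860, 6040 and 5795 against 5555, 5444 and 6690 CPM at 3 months, so the groups overlapped at these ages and the other Tpp1-/- libraries lay within the range of the controls. At 2 months the sums did not overlap, with 6129, 5997 and 6067 CPM in controls and 6144, 6619 and 6331 CPM in Tpp1-/- Cb. The mean level of the list had a correlation of 0.976 with *Rgs8* and 0.972 with *Itpr1* over the 18 Cb libraries, and of −0.767 with *Ppp1r17*. High values were not particular to this list. The interneuron list had 0.859 with *Rora* and 0.829 with *Itpr1*, and the Bergmann glia list 0.872 with *Pcp4* and 0.818 with *Pcp2*. The microglia list had −0.85 with *Itpr1* and the oligodendrocyte list −0.824 with *Rgs8*. Among 14 other Purkinje genes, 1 was called in Cb. *Foxp2*, a transcription factor of Purkinje cells that is also expressed in the thalamus and midbrain, fell at 2 months from 21.97, 24.5 and 23.0 CPM in control to 12.4, 16.3 and 14.6 CPM in Tpp1-/- Cb, which is −0.69 on the log2 scale (standard error 0.105, adjusted p = 0.000457 by edgeR). It did so in the libraries in which the midbrain and thalamus genes were low, and the part of those genes' tissue in it was not tested. At 3 months its log2 fold change was 0.22 (adjusted p = 0.780 by edgeR). Of the other cells of the cerebellar cortex, 0 of 10 granule cell, 0 of 4 molecular layer interneuron and 0 of 4 Bergmann glia genes were called in Cb at any age. The granule cell genes with the smallest p at 2 and 3 months were *Cbln3* (log2 fold change 0.19, adjusted p = 0.244) and *Neurod1* (0.25, adjusted p = 0.546) by edgeR.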

How the data were processed

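Poly(A) RNA of Cb and F/M had been sequenced with a stranded mRNA kit. The authors deposited whole-number read counts per gene, made with featureCounts on GRCm38 and not normalized, in 1 table per age. Per the file headers, counting used version 1.6.3 with GENCODE M21 and strand setting 1 at 1 month, version 1.6.2 with M16 and strand setting 2 at 2 months, and version 1.6.2 with M18 and strand setting 1 at 3 months. The headers name fractional counting, yet all values were whole. Genes overlapping the members on the opposite strand had few counts, of which *Pet100* opposite *Pcp2* had the most, 1618 against 26926 in control and Tpp1-/- Cb at 1 month.

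Groups came from the sample labels. Because annotations differed, the 12 libraries of each age were fitted together but apart from other ages, with edgeR 4.0.16 in R 4.3.3 (filterByExpr, TMM, quasi-likelihood F test, two-sided, Benjamini-Hochberg adjustment over all genes tested, 17916, 17229 and 17224 at 1, 2 and 3 months). Changes with age were tested in 1 model of 36 libraries. No covariate or block was used, and 3 libraries per group limit the precision. Whether the libraries of a group came from separate animals was taken from the labels, and p-values measure the spread between libraries. Alternatives were DESeq2 1.42.0, limma-voom (limma 3.58.1), RLE size factors, no filter, no fold minimum, agreement of the 3 tools, the sex label as a covariate, the 6 libraries of a comparison alone, a replicate block, and each library left out. Correlations without 2 libraries were added after seeing the data. Simulated counts with known changes were used to test the fits.

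All 9 members were tested in every comparison. All are named for Tpp1-/- against control in Cb and for control Cb against control F/M, and in the other comparisons only some are. From the other lists, the called genes in Cb are named or counted, and otherwise the gene with the smallest p in Cb may be, and of the 5 genes most like the mean of the members 4 are named, the other not being reported here. The members and lists were chosen with earlier results of these data known. Deviations between libraries used log2(CPM + 0.5). Python 3.11.15 with pandas 2.3.3, numpy 2.4.6 and matplotlib 3.10.9 served for tables and figures.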

Additional observations from a re-analysis of the deposited data

Results flagged for a closer look

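The effect of Tpp1-/- on *Ppp1r17* differed between the regions at 2 months, with a log2 fold change in Cb that was lower than that in F/M by 1.20, a difference of −1.20 (standard error 0.245, adjusted p = 0.0102 by edgeR). Over the alternatives the difference lay between −1.44 and −1.05, with adjusted p from 0.000669 to 0.0531. In F/M, where the gene had 12 to 35 counts per library, the rise was seen in 3 of 3 Tpp1-/- libraries, and in Cb all 3 Tpp1-/- libraries were above all 3 controls too, by far less.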

How the results depend on the processing

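The 15 counts of called members and 69 values of members and pairs were recomputed under the alternatives run for each. Correlations of pairs were recomputed only without Tpp1-/- replicate 1 of 1 month and of 3 months. The change with age had no DESeq2 fit. Only Tpp1-/- against control in Cb and in F/M had the 6 libraries alone, no fold minimum, agreement of the 3 tools and, at 1 and 3 months, the sex label. Of the counts, 1 moved with no fold minimum, to 2 members in F/M at 2 months (*Ppp1r17* and *Car8*), and 1 moved with no filter on low counts, to 1 member in the change of the Cb effect from 1 to 2 months (*Itpr1*, log2 0.46). With each Cb library left out in turn, the count for the change from 1 to 3 months ranged from 0 to 2, the 2 being *Rora* and *Pcp4* without Tpp1-/- replicate 1 of 3 months. The other counts held under all alternatives that were run for them. In Cb, 5 of 342 alternative fits of a member gave an adjusted p under 0.1, all below the fold minimum. Leaving out single libraries turned the sign of 13 log2 fold changes in Cb. Their ranges at 1 month were −0.249 to 0.129 for *Calb1*, −0.222 to 0.057 for *Car8* and −0.183 to 0.0863 for *Ppp1r17*. At 2 months the range was −0.00912 to 0.197 for *Rora*. At 3 months it was −0.293 to 0.0938 for *Itpr1*, −0.0348 to 0.0849 for *Car8*, −0.0158 to 0.137 for *Calb1*, −0.424 to 0.0489 for *Pcp4*, −0.217 to 0.0067 for *Rgs8*, −0.268 to 0.298 for *Pcp2*, −0.0389 to 0.156 for *Ppp1r17*, −0.194 to 0.194 for *Slc1a6* and −0.16 to 0.212 for *Rora*. The cause of these turns was not tested.

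Libraries of control and Tpp1-/- with the same replicate number had correlations over genes from −0.147 to 0.31 in 18 pairs, over 0.1 in 7. They share the sex label as well as the number, but the labels name no shared litter or day, and the libraries were not taken as pairs. With the replicate block, 0 members were called in Cb at each age and 1 (*Ppp1r17*) in F/M at 2 months, and no call of a member changed. Counts of the members in Cb were high, so that the spread between libraries and not depth limited these values. *Pcp2* was tested in F/M too and is counted among the members there, but its counts were too few for a precise comparison of the genotypes. The standard errors of its log2 fold change in F/M were 0.986, 0.445 and 1.66 at 1, 2 and 3 months.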
